A study of Mus musculus with 2 samples.

Results

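The 9 genes described here, Adora2a, Ppp1r1b, Pde10a, Tac1, Penk, Pdyn, Rgs9, Isl1 and Six3, were listed by name as genes of striatal medium spiny neurons, out of 21938 protein-coding genes of GENCODE M21. Each was followed through its window on mm10, which is the gene body with 10 kb of flank at both ends. The question was whether these striatal genes are accessible in cortical tissue. DNase-seq had been carried out on frontal cortex of female B6CASTF1/J mice, F1 animals of a B6 by CAST cross, at 36 days of age. The labels give 1 group of 2 biological replicates with separate tissue records and the same donor label, and do not say whether 2 animals were used. In this assay DNase I cuts nuclear DNA where proteins and nucleosomes leave it exposed, and a peak is a region with many cuts. A footprint is a short stretch that is cut less than its surroundings, and not every footprint called here lies inside a listed peak. The tissue is bulk cortex, in which few cells with an open site and a weakly open site in many cells cannot be told apart. With 1 group of 2 replicates there is no test between conditions, and the values below are described beside the same counts over all protein-coding genes.

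Medium spiny neurons are the GABA-releasing projection neurons of the striatum. They integrate cortical and dopamine input and are divided into a direct pathway, which carries the dopamine receptor Drd1 and makes substance P and dynorphin, and an indirect pathway, which carries Drd2 and the adenosine receptor Adora2a and makes enkephalin. Both kinds hold large amounts of the proteins that carry dopamine and adenosine signals onward through cyclic AMP. Several of these genes are also known from the cortex: Tac1, Penk and Pdyn are transcribed in subsets of cortical neurons, most of them interneurons, while Isl1 and Six3 are factors of striatal rather than cortical neurons.

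The sequences of the sites on which the results turn are given from 5′ to 3′ on the strand of the gene, with bases inside a footprint of either replicate in capitals. The first 3 are promoters from RefSeq on GRCm38.p6, cut before the first annotated start. The other 4 are peaks found in both replicates away from the members' starts, read from the mm10 genome. Rgs9 is shown as a promoter that was open in both replicates, and Tac1 and Pdyn as promoters that were in the peak list of replicate 2 alone.
Rgs9 promoter, chr11:109298182-109298431, minus strand: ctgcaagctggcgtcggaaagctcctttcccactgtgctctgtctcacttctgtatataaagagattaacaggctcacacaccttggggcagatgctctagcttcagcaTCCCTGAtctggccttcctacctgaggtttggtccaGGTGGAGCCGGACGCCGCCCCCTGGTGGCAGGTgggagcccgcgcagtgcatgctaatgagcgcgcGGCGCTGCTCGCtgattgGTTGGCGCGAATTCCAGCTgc
Tac1 promoter, chr6:7554811-7554878, plus strand: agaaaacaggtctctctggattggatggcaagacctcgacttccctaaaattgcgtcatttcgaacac
Pdyn promoter, chr2:129699939-129700188, minus strand: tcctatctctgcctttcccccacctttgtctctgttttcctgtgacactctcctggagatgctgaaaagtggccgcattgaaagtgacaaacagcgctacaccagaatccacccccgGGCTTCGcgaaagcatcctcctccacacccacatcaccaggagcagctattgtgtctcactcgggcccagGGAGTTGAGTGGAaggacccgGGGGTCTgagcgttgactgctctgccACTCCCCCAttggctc
Ppp1r1b upstream peak, chr11:98342661-98342900, plus strand: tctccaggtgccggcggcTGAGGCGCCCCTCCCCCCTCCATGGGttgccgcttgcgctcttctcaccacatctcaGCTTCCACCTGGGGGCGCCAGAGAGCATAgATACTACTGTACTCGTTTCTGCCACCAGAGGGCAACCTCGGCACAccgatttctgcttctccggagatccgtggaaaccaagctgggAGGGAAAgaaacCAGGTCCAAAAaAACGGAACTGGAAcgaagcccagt
Penk upstream peak, chr4:4140181-4140380, minus strand: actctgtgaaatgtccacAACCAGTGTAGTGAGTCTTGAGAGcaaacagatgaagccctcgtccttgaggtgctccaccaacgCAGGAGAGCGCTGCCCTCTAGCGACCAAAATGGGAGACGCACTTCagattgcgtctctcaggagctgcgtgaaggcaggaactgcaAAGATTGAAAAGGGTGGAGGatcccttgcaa
Pde10a intron peak, chr17:8614261-8614460, plus strand: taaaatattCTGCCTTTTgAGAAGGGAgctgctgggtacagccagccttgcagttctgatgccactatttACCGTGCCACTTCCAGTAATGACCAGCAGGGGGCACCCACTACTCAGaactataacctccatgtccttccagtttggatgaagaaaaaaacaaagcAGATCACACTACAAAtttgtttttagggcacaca
Six3 downstream peak, chr17:85633741-85633920, plus strand: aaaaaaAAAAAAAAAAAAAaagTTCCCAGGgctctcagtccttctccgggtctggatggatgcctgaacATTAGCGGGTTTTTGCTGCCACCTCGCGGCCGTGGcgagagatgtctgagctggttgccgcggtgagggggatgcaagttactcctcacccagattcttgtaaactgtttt
These are sequences of the reference strain, so CAST alleles of the F1 mice are not shown. RefSeq entries were matched for 6 of the 9 genes, and Adora2a, Penk and Ppp1r1b were not matched.

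The authors deposited 2 peak lists for each replicate, and the shorter one is used here unless the longer list is named. It held 66512 peaks in replicate 2 and 29700 in replicate 1, the longer list held 117579 and 56015, and 250543 and 112826 footprints were called. Lists of such different length were compared in every count below unless lists of equal length are named. Signal is the authors' value for a peak, taken here to be a read-depth normalized density. Its median over all peaks was 1.17 in replicate 2 and 1.34 in replicate 1.

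The promoters of 7 of the 9 genes had a peak in replicate 2, against 2 of 9 in replicate 1, and those of Pde10a and Rgs9 had one in both. A promoter peak is a peak that overlaps the 500 bp to either side of any annotated start of the gene. Over all protein-coding genes 60% had one in replicate 2, 51% in replicate 1 and 50.8% in both. With 9 genes these counts are coarse, and the 2 replicates are of 1 group, so the difference is one between libraries. For lists of equal length, replicate 2 was cut to its 29700 peaks of highest signal and replicate 1 was left whole. The count in both was then 2, and the peaks shared in the 9 windows, 15 with the full lists, numbered 13. This cut could lower these counts but not raise them, and the count of replicate 2 alone after it is not given here. In the full list of replicate 2 the highest promoter peaks of Tac1, Adora2a, Pdyn and Penk stood at percentiles 8.48, 20.4, 23.3 and 50.8 by signal. Those of Ppp1r1b, Rgs9 and Pde10a stood at 57.4, 89.4 and 89.9. The part of list length in the difference of 7 against 2 was not tested. Isl1 and Six3, the pair of developmental factors, had no promoter peak in either replicate. With the 5′-most start of each gene alone, Ppp1r1b dropped out and 6 genes in replicate 2 and 2 in replicate 1 had one. The shares of all genes above are by any start, and those by the 5′-most start are not given here. By the longer lists the count in both was 6 of 9, against 57.9% of all genes, and Tac1, Pdyn, Adora2a and Isl1 joined Pde10a and Rgs9.

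**Figure D1:**
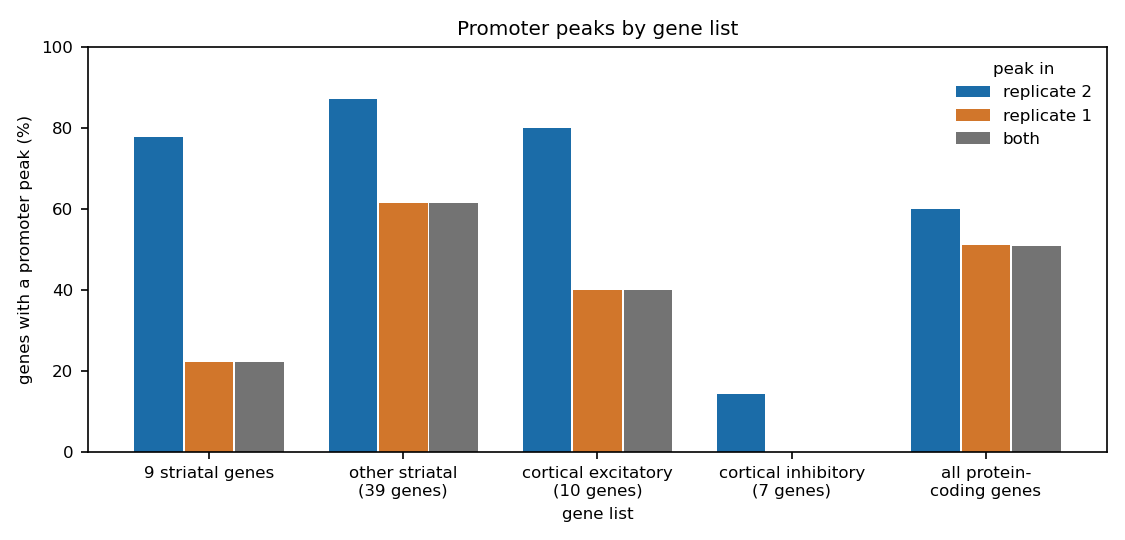
Share of genes with a promoter peak in replicate 2, in replicate 1 and in both, for the 9 striatal genes, 39 other striatal genes, 10 cortical excitatory markers, 7 cortical inhibitory markers and all 21938 protein-coding genes. Bars start at 0; the 9 genes stand at 7 of 9 in replicate 2 and 2 of 9 in replicate 1, while all genes stand at 60% and 51%.

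Windows of the 9 genes held 50 peaks in replicate 2 and 15 in replicate 1. All 15 overlapped a replicate 2 peak, as did 92.5% of all replicate 1 peaks. In replicate 2, 8 of the 9 windows held a peak, against 78.1% of all genes, and in replicate 1, 6 of 9, against 67.6%. At least 1 shared peak lay in the windows of 6 of the 9 genes, near the 67.2% of all genes. Tac1, Adora2a and Isl1 had none. The median was 2 peaks per gene in replicate 2, 1 in replicate 1 and 1 shared, the same medians as over all protein-coding genes. Per 10 kb of window the median was 0.519 in replicate 2 and 0.216 in replicate 1 for the members, and 0.428 and 0.227 for all genes. Of the 15 shared peaks 5 lay in introns, 5 in upstream flanks and 5 in downstream flanks. Outside the promoters of the 9 genes lay 13. The same counts over the windows of all genes are not given here, so these describe the 15 peaks only.

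**Figure D2:**
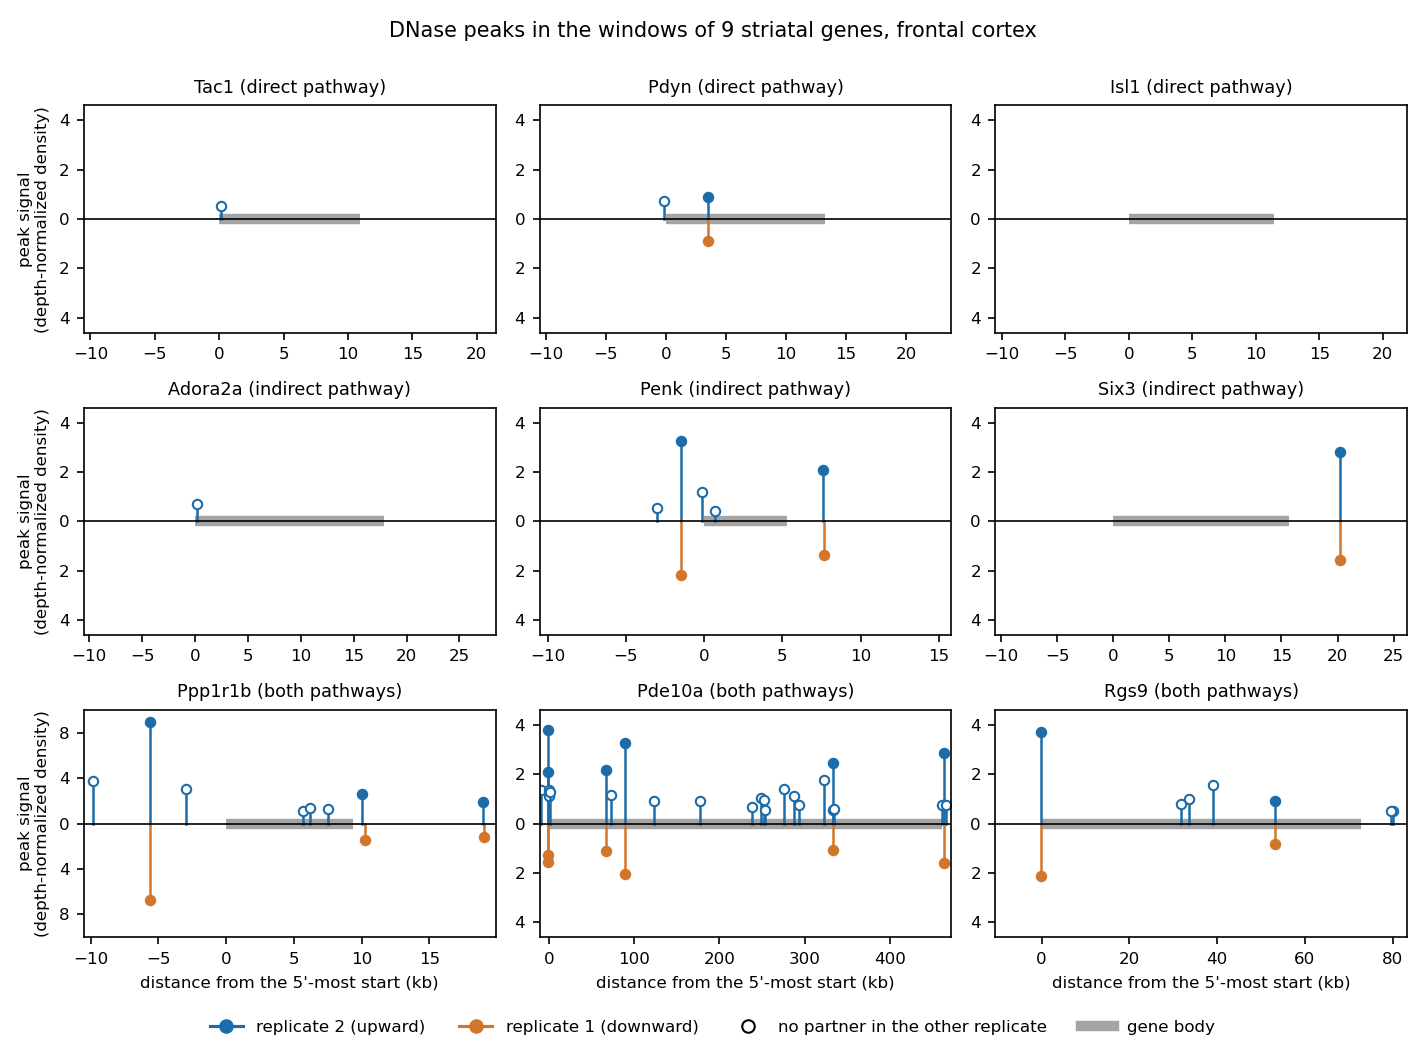
Peaks in the window of each gene, by distance in kb from its 5′-most start (horizontal) and signal, a depth-normalized density (vertical), with replicate 2 drawn upward and replicate 1 downward. Filled points have a partner in the other replicate and open points have none; Isl1 has no point, and the highest, 8.98 and 6.69, stand upstream of Ppp1r1b, whose panel has a wider vertical range.

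The genes of both pathways held most of the peaks and also most of the window sequence. Ppp1r1b, Pde10a and Rgs9 had 40 of the 50 peaks in replicate 2 and 11 of the 15 in replicate 1. The direct pathway genes Tac1, Pdyn and Isl1 had 3 and 1, and the indirect pathway genes Adora2a, Penk and Six3 had 7 and 3. The windows differ in length, since Pde10a spans 461.3 kb and had 25 and 6 peaks on its own. Its window is 481.3 kb and that of Rgs9 92.78 kb, while the others run from 25.29 to 37.91 kb. The counts by pathway are thus no comparison of pathways. Per length, Pde10a had 0.519 peaks per 10 kb in replicate 2 and 0.125 in replicate 1, a density that 57.7% and 39.3% of all genes stayed below. Ppp1r1b and Penk were the densest, with 2.72 and 1.98 peaks per 10 kb in replicate 2, above 98.7% and 96.4% of all genes. In replicate 1 they had 1.02 and 0.791, above 92.6% and 87.1%. The Ppp1r1b count includes peaks at the start of the neighbouring gene Stard3 and inside it.

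Tac1, on chromosome 6 from 7554879 to 7565834, encodes the precursor of substance P and neurokinin A. Its window held 1 peak in replicate 2, over the first start from 7554847 to 7555240, and none in replicate 1. The centre of the peak lay in untranslated exon sequence. Its signal was 0.515, at percentile 8.48 of the replicate 2 list, low in that list. The longer lists had 6 weak peaks in replicate 2 and 4 in replicate 1, with the highest signals at 0.515 and 0.483. The 4 of replicate 1 had their centres within 1451 bp of the first start. The 394 bp peak had 2 footprints, and neither of them reached into the 68 bases printed above.

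Pdyn, on chromosome 2 from 129686565 to 129699844, encodes prodynorphin, the precursor of the dynorphin peptides. It had 1 shared peak, in an intron from 129696243 to 129696393 in replicate 2. Its signal was 0.903 in replicate 2 and 0.907 in replicate 1. The values were nearly equal, unlike at most shared peaks. The promoter peak, from 129699861 to 129700055, had a signal of 0.728 in replicate 2 and no partner, while the longer list of replicate 1 had a peak of signal 0.507 at the same place. Pdyn had the lowest promoter CpG ratio of the 9 genes, 0.328.

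Isl1, on chromosome 13 from 116298281 to 116309689, encodes a LIM-homeodomain factor needed for the direct pathway identity of striatal neurons. No peak lay in its window in either replicate. The longer lists had 1 peak each, of signal 0.845 from 116309501 to 116309640 in replicate 2 and of signal 0.754 from 116309711 to 116309780 in replicate 1. Their centres lay to either side of the first start and they did not overlap. Isl1 had 3 footprints in replicate 2 and none in replicate 1.

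Adora2a, on chromosome 10 from 75316877 to 75334784, encodes the adenosine receptor of the indirect pathway. Replicate 2 had 1 peak of 67 bp at an internal start, from 75317043 to 75317109, with a signal of 0.689, and replicate 1 had none. Replicate 1 listed a peak of signal 0.719 there in its longer list. The 2 signals were thus close, while the shorter list held the site in replicate 2 alone.

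Penk, on chromosome 4 from 4133531 to 4138819, encodes proenkephalin. It had 5 peaks in replicate 2 and 2 in replicate 1, and both replicate 1 peaks were shared. The higher shared peak had its centre 1462 bp upstream of the first start, inside the noncoding transcript A830012C17Rik of the other strand. Its signal was 3.23 in replicate 2 and 2.17 in replicate 1. The other lay downstream of the gene, with 2.09 and 1.35. At the promoter itself replicate 2 had a peak from 4138881 to 4139080 of signal 1.19 with 3 footprints, and another of signal 0.398 over coding sequence near an internal start. Replicate 1 had no peak at either place in its shorter or its longer list.

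Six3, on chromosome 17 from 85613608 to 85629302, encodes a homeobox factor of indirect pathway neurons. Its promoter had no peak in the shorter or the longer list of either replicate. The window held 1 shared peak, downstream of the gene with its centre 20223 bp from the first start. Its signal was 2.83 in replicate 2 and 1.57 in replicate 1. It is the sequence given above for Six3, with 3 footprints in replicate 2 and 2 in replicate 1.

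Ppp1r1b, on chromosome 11 from 98348404 to 98357796, encodes the phosphoprotein that inhibits protein phosphatase 1 once dopamine signalling has raised cyclic AMP. Its window had 8 peaks in replicate 2 and 3 in replicate 1, and the replicate 1 peaks all lay in the flanks. The highest peak of all 9 windows had its centre 5623 bp upstream of the first start. Its signal was 8.98 in replicate 2 and 6.69 in replicate 1, at percentiles 99.7 and 99.8 of the lists. It held 6 footprints in each replicate. Another shared peak, of 2.58 and 1.44, lay at the start of the neighbouring gene Stard3, which encodes a cholesterol transfer protein, and one of 1.88 and 1.23 inside Stard3. A further 2 upstream peaks of replicate 2, of 3.77 and 3.01, met replicate 1 peaks of 1.83 and 2.27 in its longer list. Within Ppp1r1b replicate 2 had 3 peaks of signal 1.08 to 1.35, all overlapping the antisense transcript 1700003D09Rik as well, and replicate 1 had none there in either list. At the 5′-most start the longer list of replicate 2 had a peak of signal 2.05, which was not in its shorter list.

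Pde10a, on chromosome 17 from 8525372 to 8986648, encodes a phosphodiesterase that breaks down cyclic AMP and cyclic GMP. It had 25 peaks in replicate 2, 17 of them in introns, and 6 in replicate 1, 3 of them in introns. Signals ran from 0.563 to 3.80 in replicate 2, with a median of 1.13, and from 1.08 to 2.04 in replicate 1, with a median of 1.41. The highest in replicate 2 was the promoter peak from 8524901 to 8525140, of signal 3.80, against 1.57 in replicate 1. The shared intron peak from 8614261 to 8614460, printed above, had 3.26 and 2.04. Replicate 2 also had a peak of signal 1.41 at an internal start near 8801495, where the longer list of replicate 1 had 1.13. Of the 25 peaks, 15 met a longer-list peak of replicate 1. The last shared peak lay at the start of the neighbouring gene 1700010I14Rik.

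Rgs9, on chromosome 11 from 109225355 to 109298129, encodes a regulator that speeds the shut-off of inhibitory G proteins in the striatum and, as another splice form, in photoreceptors. Its promoter peak, from 109298081 to 109298320 in replicate 2, reached 3.69 in replicate 2 and 2.12 in replicate 1 and held 5 footprints in each. The second shared peak, in an intron, was weak at 0.903 and 0.825 and held no footprint. In replicate 2 a further 5 peaks had no partner, with signals from 0.505 to 1.56.

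The table of cleavage rates gives an FDR per interval, from the same reads as the peak lists. Whether the peaks were called from these FDRs is not stated. The counts below are therefore no separate support for the peak counts. Within 500 bp of a start, 7 of the 9 genes had an interval with an FDR of 0.001 or less in replicate 2, against 2 in replicate 1, and Pde10a and Rgs9 had it in both. Over all protein-coding genes 60.8% had it in replicate 2, 52.3% in replicate 1 and 52.1% in both. At an FDR of 0.05 or less, where the table ends, 7 of 9 genes had an interval in both replicates, against 59.1% of all genes. The lowest FDR at the Penk promoter was 1.02e-16 in replicate 2 and 0.0372 in replicate 1. At the Rgs9 promoter it was 1.17e-29 and 7.42e-11, and at Pde10a, whose 13 starts give it more sequence to draw on, 3.27e-20 and 1.56e-06. Tac1 had 4.59e-06 and 0.00134, Pdyn 2.25e-05 and 0.00781, and Adora2a 0.000415 and 0.00393. Those of Isl1, 0.012 and 0.0219, stayed above 0.001 in both. Ppp1r1b had 5.28e-06 in replicate 2 and no interval listed in replicate 1, and Six3 had none listed in either. Rgs9 had the lowest value and Pde10a the next in both replicates, while Penk followed them in replicate 2 and came last of the 7 listed in replicate 1.

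**Figure D3:**
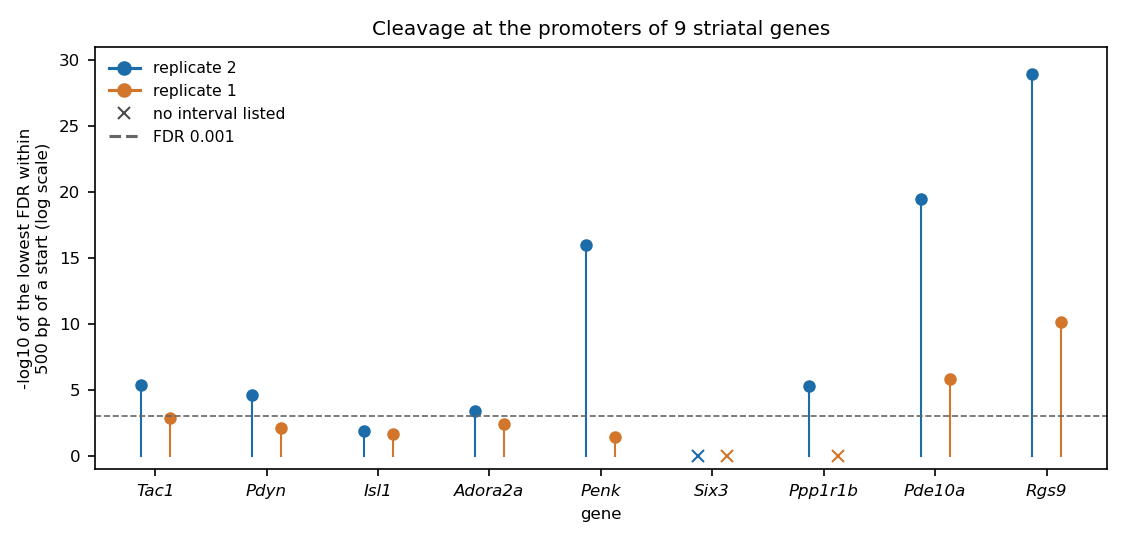
Lowest FDR of the cleavage table within 500 bp of any start of each gene, as −log10, with replicate 2 left of replicate 1 and a dashed line at 0.001; crosses mark genes with no interval listed. Replicate 2 lies above the line at 7 genes and replicate 1 at 2, and Penk has the pair 1.02e-16 and 0.0372.

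Promoters rich in CpG dinucleotides are known to be open in most tissues. The CpG ratio, the observed number over that expected from base composition within 500 bp of a start, was 0.6 or more at the highest start of 7 of the 9 genes. The median was 0.713, against 0.627 over all genes. Of those 7 genes, 5 had a promoter peak in replicate 2 and 2 in both, against 91.8% and 81.9% of all genes with such promoters. Isl1 with 0.774 and Six3 with 0.713 were the pair that had none. The 2 genes below 0.6, Pdyn and Ppp1r1b with 0.533, both had a promoter peak in replicate 2 alone, against 24.9% of all such genes in replicate 2 and 16.4% in both.

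At the 15 shared peaks the signal was higher in replicate 2 in 14, and the median log2 ratio of replicate 2 over replicate 1 was 0.73 (quartiles 0.60 and 0.85), or 1.66-fold. At all 27469 shared peaks it was 0.69 (0.46 and 0.91), or 1.61-fold, with 96.5% higher in replicate 2. The highest ratio was 1.28 at the Pde10a promoter and the lowest −0.01 at the Pdyn intron peak.

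**Figure D4:**
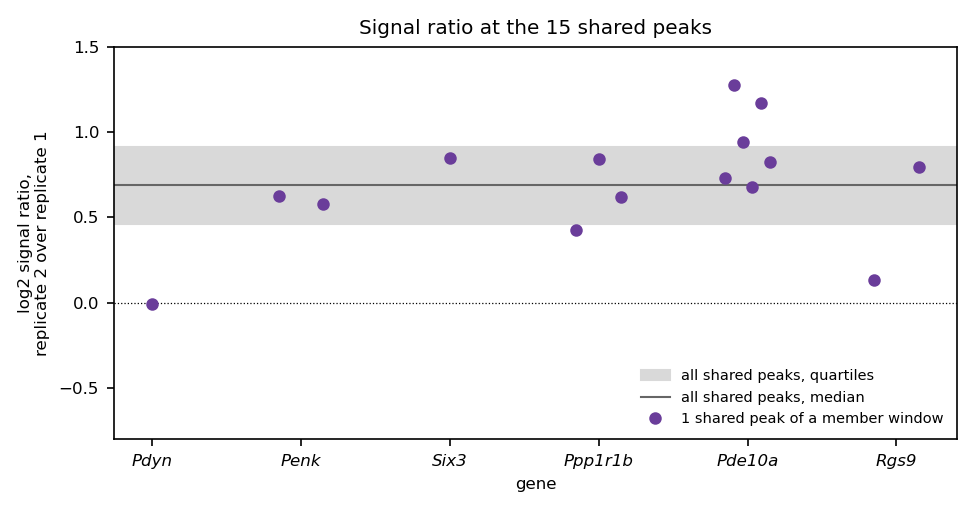
Log2 ratio of peak signal, replicate 2 over replicate 1, at the 15 shared peaks by gene, each point 1 peak, with the median (line, 0.69) and quartiles (band, 0.46 to 0.91) of all 27469 shared peaks. Points run from −0.01 at Pdyn to 1.28 at Pde10a.

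The 35 peaks of replicate 2 without a partner were weaker, with a median signal of 0.971 (0.398 to 3.77), than the 15 with one, at 2.58 (0.903 to 8.98). Over all replicate 2 peaks these medians were 0.845 without and 2.29 with a partner. The share with a partner was 30.0% (95% Wilson interval 19.1 to 43.8%), against 40.7% (40.3 to 41.0%) of all replicate 2 peaks. Of the 35, 16 (45.7%, 30.5 to 61.8%) met a longer-list peak of replicate 1, against 42.8% (42.3 to 43.2%) of all replicate 2 peaks without a partner. These intervals cover counting error only.

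Footprints in the windows numbered 170 in replicate 2 and 62 in replicate 1. The per-gene median was 6 and 2, against 10 and 5 over all genes. Pde10a had 84 and 30, Ppp1r1b 25 and 13, Rgs9 24 and 9, and Penk 17 and 5, while the other 5 genes had 6 or fewer each in either replicate. A footprint inside a peak was found in both replicates for 5 of 9 genes (Penk, Six3, Ppp1r1b, Pde10a and Rgs9), against 65.7% of all genes. Inside a peak lay 68.8% (61.5 to 75.3%) of the footprints of the 9 windows in replicate 2 and 51.6% (39.4 to 63.6%) in replicate 1, against 67.6% and 65.6% of all footprints. Footprints of replicate 2 overlapped one of replicate 1 in 35 of 170 cases (20.6%, 15.2 to 27.3%), against 23.5% over the genome. Those of replicate 1 overlapped one of replicate 2 in 38 of 62 cases (61.3%, 48.8 to 72.4%), against 54.5% over the genome. Member peaks held a footprint in 86.0% of cases in replicate 2 and 86.7% in replicate 1, close to the 83.0% and 83.2% of all peaks.

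Exact matches to 13 short motifs were sought on both strands of the 50 member peaks of replicate 2. The cyclic AMP response element, TGACGTCA, to which the factor CREB binds, was at none of the 50 peak centres of 200 bp, and was at 1.03% of all such centres. The related TGCGTCA is known from the human PENK promoter as part of an enhancer that responds to cyclic AMP. It too was at none of the 50 centres, against 1.43% of all centres. The motif was found in the Tac1 promoter peak, outside its centre and in no footprint. In the printed Tac1 promoter it starts at base 52. The Isl1 promoter held it too, as did 2.78% of all 16522 RefSeq promoters. CAGATG, an E-box of neuronal bHLH factors, was at 11 of 50 centres (22%), against 18.9% of all centres. Its 13 matches in member peaks touched a footprint of replicate 2 in 3 cases (23.1%), against 29.3% of the 15088 matches in all peaks. GGGCGG, the GC box, was at 8 centres (16%), against 22.6%. The AP-1 site TGANTCA was at 3 (6%), against 9.7%. Of its 4 matches in member peaks 2, in the Penk promoter peak and in the peak upstream of Pde10a, touched a footprint of replicate 2 (50%, against 25.5% of matches in all peaks), and none touched one of replicate 1. These shares are descriptions, and a match is not a binding site.

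The core motif of the insulator factor CTCF, added after the sequences had been seen, was at 5 of 50 centres (10%), close to the 10.2% of all centres, while 2.38% of RefSeq promoters of 300 bp held it. All 5 matches, 2 upstream of Ppp1r1b, 2 in Pde10a introns and 1 in the Rgs9 promoter, touched a footprint in both replicates, as did 56.5% of the 7114 matches in all peaks. In the sequences above it starts at base 127 of the Ppp1r1b peak, base 93 of the Pde10a peak and base 162 of the Rgs9 promoter, overlapping the GC box match there. The Ppp1r1b match lies in the highest peak of the 9 windows.

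Other genes of the same neurons and their signalling were taken from a list of 40, of which 39 were matched by symbol. Of these, 34 had a promoter peak in replicate 2 (87.2%) and 24 in both (61.5%), against 60% and 50.8% of all genes. This comparison takes no account of promoter CpG ratio. Of all genes with a ratio of 0.6 or more 81.9% had one in both, and of those below it 16.4%. The dopamine receptor gene Drd1 had one in both, while Drd2 had one in replicate 2 alone and no peak in replicate 1. Among signalling genes Gnal, Gng7, Adcy5, Prkaca and Ppp1ca had one in both, as had those of the partners of Rgs9, Gnb5 and Rgs7bp, while Pde1b and Arpp21 had one in replicate 2 alone and no peak in replicate 1. Of 10 transcription factor genes on the list, 6 had a promoter peak in both (Foxp1, Bcl11b, Meis2, Ebf1, Rarb and Rxrg), 3 in replicate 2 alone (Foxp2, Sp9 and Ikzf1, with no peak in replicate 1), and Zfp503 in neither. These groups were formed after the values were seen. Several of these are widely expressed in brain. Chrm4, Drd3, Oprk1, Rasd2 and Zfp503 had no promoter peak in either replicate. The median was 4 peaks in replicate 2 and 2 in replicate 1.

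The tissue label was set against markers of the cells that cortex holds. Of 10 cortical excitatory markers, 8 had a promoter peak in replicate 2 and 4 in replicate 1, with a median of 8 and 1 peaks per window, and Slc17a7 and Neurod2 had no promoter peak in either. Of 7 cortical inhibitory markers, 1 (Pvalb) had a promoter peak in replicate 2 and none in replicate 1. Astrocyte markers had 3 of 4 in each replicate, oligodendrocyte markers 3 and 1 of 5, and neither microglia nor vascular markers, 4 genes each, had one in either replicate. Of 6 factors of striatal progenitors and septum, 3 had one in replicate 2 and 1 in replicate 1. Over all genes 60% had one in replicate 2 and 51% in replicate 1. Windows with a shared peak were 6 of 10 for excitatory, 2 of 7 for inhibitory, 3 of 4 for astrocyte and 4 of 5 for oligodendrocyte markers. They were 2 of 4 for microglia markers, 3 of 4 for vascular markers and 1 of 6 for the progenitor and septal factors, against 67.2% of all genes. The part of cell makeup in the replicate difference at the striatal genes was not tested.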

How the data were processed

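DNase-seq of frontal cortex was given as 2 libraries of 1 group, replicates 2 and 1 by the labels. The authors deposited, per the text listing with the files, peak lists, footprints and cleavage rates made on mm10 from the filtered alignments of that library. Neither the labels nor the headers state an aligner, a caller or a cut-off. The signal of a peak, deposited by the authors, was taken to be a read-depth normalized density, since the listing names such a signal track from the same alignments. The p-value column deposited by the authors is an FDR per interval that ends at 0.05. The footprint score, as deposited, is constant at 0.01 and was not used. Read totals per library were not analysed here and the depth behind a signal is unknown. Footprints and peaks carry no error of their own.

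Of each library's peak lists the one with fewer peaks was taken. Starts came from GENCODE M21 on 21 chromosomes and sequence from GRCm38.p6, the assembly of mm10. Peaks were shared from 1 bp of overlap, and a footprint was inside a peak when its midpoint was. Overlaps of peaks were computed with pandas 2.3.3 in Python 3.11.15, those of FDR intervals with bedtools 2.31.1, sequences with pysam 0.24.0 and Wilson intervals with scipy 1.17.1. The overlap code was tested on simulated data. All 9 genes are named; of the other striatal list those with a promoter peak in both replicates or in neither could be, and neighbours where a peak lay at their start. The text also names overlapping transcripts, single markers and list genes with a promoter peak in replicate 2 alone, chosen after their values were seen. The members, lists and motifs were chosen with earlier results of these data known, so no p-value is given.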

Additional observations from a re-analysis of the deposited data

How the results depend on the processing

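The count of 2 genes with a promoter peak in both replicates became 6 with the longer lists and ran from 2 to 7 with a single replicate. It was 2 under each of the other 6 alternatives, one of them (the 5′-most start alone) added after the data were seen. Of these 6, only a promoter of 1000 bp to each side could have raised the count. The 24 of the other striatal list became 15 when only the upper 50% of peaks by signal were kept, and ran from 24 to 34 with a single replicate. The 15 shared peaks became 34 with the longer lists, 9 with the upper 50% by signal, 6 in gene bodies alone and 25 with 50 kb to each side, and ran from 15 to 50 with a single replicate. Leaving out peaks at other protein-coding starts, also added after seeing the data, gave 13. The 5 genes with a footprint inside a peak in both replicates became 1 in gene bodies alone and ran from 5 to 8 with a single replicate. The 2 promoters with a low FDR in both replicates became 5 at 0.01 and 7 at 0.05, and ran from 2 to 7 with a single replicate. Shares of all genes in gene bodies alone and at an FDR of 0.01 are not given here. The median log2 ratio of 0.73 lay between 0.59 and 0.80 under its 6 alternatives. Of 36 alternatives for single genes 16 moved the count of shared peaks by more than 1.5 times. The value with replicate 2 alone was the higher in every such range, and replicate 1 has the shorter lists. No paired analysis was possible because the labels give 1 group.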

Other observations

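Some genes of the other striatal list, picked after their values were seen, had several peaks in replicate 2 and none in replicate 1. Over all genes 78.1% had at least 1 peak in the window in replicate 2 and 67.6% in replicate 1. The counts here are of the shorter lists, and those of the longer lists are not given for these genes. Arpp21, which encodes a cyclic AMP-regulated phosphoprotein of striatum and cortex, had 24 and 0. Foxp2, a forkhead factor of medium spiny and deep-layer cortical neurons, had 8 and 0, Pde1b had 7 and 0, and Sp9, a zinc finger factor of indirect pathway neurons and interneurons, had 4 and 0. Rgs7bp and Gnal, in contrast, had 7 and 6 and 9 and 6, and Tmem158 had 4 in replicate 2 and 7 in replicate 1.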
